A study of Homo sapiens with 36 samples.

Results

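The data concern 10 genes for Wnt receptors and Wnt inhibitors among the 26485 gene symbols counted in each library. They are the receptors and co-receptors PTK7, ROR1, RYK, FZD2, FZD6, LRP5 and LRP6, the inhibitors DKK1 and SFRP1, and APCDD1L, a paralogue of the membrane-bound Wnt inhibitor APCDD1. The genes were taken by symbol. PTK7 and APCDD1L were put on the list for their higher levels after knockdown of an isoleucine tRNA, so in those comparisons their values are given as a description with no test. The other 8 genes were listed with results of these data known, and their tests are adjusted over all genes tested.

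Wnt proteins are secreted ligands that bind Frizzled receptors (FZD). Together with the co-receptors LRP5 and LRP6, this binding stabilises β-catenin, which switches on target genes with TCF/LEF factors. ROR1, RYK and PTK7 are kinase-related membrane proteins that take part in Wnt signalling, PTK7 and ROR1 chiefly in the branch that sets cell polarity and movement. DKK1 blocks LRP5 and LRP6, is itself a β-catenin target, and SFRP1 binds Wnt ligands outside the cell. ROR1 and PTK7 have been studied in triple-negative breast cancer.

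The cells were MDA-MB-231, an established human line of triple-negative breast cancer, grown in culture; the labels give its source as a xenograft cell line. All 4 lines carried a CRISPR interference (CRISPRi) construct, which represses its target, and an overexpression construct. The control line had CRISPRi against eGFP and the control overexpression construct. The UAU line had CRISPRi against eGFP and overexpressed tRNA-Ile of anticodon UAU. The GAUi line had CRISPRi against tRNA-Ile of anticodon GAU and the control overexpression construct, and the isoswitch line had both changes. The labels do not say whether a line was 1 clone or a pool, nor whether the replicates A, B and C were separate cultures, so each p-value reflects the spread of these samples alone, which may be technical. All cells received 100 ug/mL cycloheximide, which halts ribosomes, for 5 min before lysis. RNA was sequenced as total RNA, as a low fraction (monosomes and the first polysome peak) and as a high fraction (heavier polysomes), with 3 replicates of each of 12 groups, 36 libraries in all.

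The libraries held 5192464 to 8974001 counts each. The unit of level is CPM, the count per 1000000 counts of a library whose total was adjusted with edgeR's TMM factors, computed once over the 36 libraries. A CPM is a share of the mRNA of that library, so a change in a fraction is relative to the other mRNAs there, and less RNA per cell cannot be told apart from fewer cells. VIM, CD44, CAV1, AXL and ZEB1, expected in MDA-MB-231, were at 61.3 CPM or more in all 36 libraries, while SPARC stayed under 1 CPM. ESR1, PGR and CDH1 were under 1 CPM in every library, and ERBB2, EPCAM and GATA3 reached 20.1, 27.2 and 23.8 CPM. Of 16 markers of fibroblasts, leukocytes and endothelium, CD3E and CDH5 were at 0 in all libraries. The summed level ran from 0.5 to 6.0 CPM for fibroblast, 3.5 to 18.4 CPM for leukocyte and 1.3 to 8.3 CPM for endothelial markers over the 12 groups, with CD68 (up to 17.7 CPM) and PECAM1 (up to 8.13 CPM) the most abundant. Low control replicate B and total GAUi replicate A stood apart from the other replicates of their groups, in some members and over many genes. The chi-square per degree of freedom compares 2 libraries with counting error. For total GAUi it was 23.8 (A and B), 12.8 (A and C) and 8.53 (B and C), against at most 3.73 in other total groups. Low control gave 15.8 (A and B), 13.7 (B and C) and 2.88 (A and C), and other low groups at most 9.29. In the high fraction UAU replicate C lay farthest from the others of its group. High UAU gave 9.01 (A and C), 5.35 (B and C) and 2.48 (A and B), and other high groups at most 6.30. The lines of a fraction share 1 estimate of the spread, which includes these libraries.

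The stretches of 250 bases before the start sites of PTK7 and DKK1 are shown first, because both genes were higher in the knockdown lines and TCF/LEF factors are known for the motif TCAAAG. RefSeq promoters (GRCh38.p14) were matched for 5 of the 10 members: PTK7, ROR1, RYK, LRP5 and DKK1. Capitals mark TCAAAG on either strand (CTTTGA on the printed one).
PTK7, chr6:43076064-43076313, plus strand: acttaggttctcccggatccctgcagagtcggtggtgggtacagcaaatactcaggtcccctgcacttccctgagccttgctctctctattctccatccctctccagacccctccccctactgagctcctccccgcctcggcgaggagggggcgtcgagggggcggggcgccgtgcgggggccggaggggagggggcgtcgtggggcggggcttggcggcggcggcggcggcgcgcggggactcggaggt
DKK1, chr10:52314031-52314280, plus strand: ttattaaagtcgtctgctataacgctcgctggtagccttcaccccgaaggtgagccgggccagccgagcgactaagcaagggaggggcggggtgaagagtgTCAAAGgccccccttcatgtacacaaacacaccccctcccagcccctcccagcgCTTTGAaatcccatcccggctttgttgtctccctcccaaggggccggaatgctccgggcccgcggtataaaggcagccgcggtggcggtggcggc
DKK1 held the motif 2 times, beginning 149 bases (forward) and 95 bases (reverse) before the start site. The stretch of PTK7 held it at no position, nor did those of ROR1, RYK, LRP5 and the second annotated start of PTK7. Of all 35116 RefSeq stretches of this length, with no chromosome left out, 11.2% held it. GC content was 71.6% in PTK7 and 62.8% in DKK1, against a median of 58.0%. A match describes these letters and does not show that a factor binds them.

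PTK7, a catalytically inactive receptor tyrosine kinase gene on chromosome 6 (43076314 to 43161715, GRCh38.p14), had its highest levels in the 2 lines with the GAU knockdown. In total RNA the control replicates had 4.29, 5.92 and 6.46 CPM and the UAU replicates 6.51, 6.17 and 4.92 CPM. The GAUi replicates had 28.5, 17.8 and 17.8 CPM and the isoswitch replicates 18.9, 21.05 and 19.9 CPM. Every library with the knockdown lay above every library without it, with GAUi replicate A the highest. The log2 fold change against control was 1.93 (SE 0.20, 3.82-fold) in GAUi and 1.84 (SE 0.20, 3.58-fold) in isoswitch. Leaving out any 1 replicate, GAUi replicate A among them, moved the GAUi value between 1.66 and 2.06. The total RNA values rest on 32 to 262 counts per library, and over all fractions PTK7 had 12 to 262.

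The high fraction held PTK7 at 3.496, 4.14 and 3.63 CPM in control and 3.15, 3.42 and 3.68 CPM in UAU. Its level was 11.9, 8.50 and 9.09 CPM in GAUi and 12.8, 12.6 and 13.1 CPM in isoswitch. Here too the knockdown lines and the others did not overlap, and isoswitch lay above GAUi in all replicates. The log2 fold change against control was 1.39 (SE 0.19) in GAUi and 1.76 (SE 0.19) in isoswitch. The difference between isoswitch and GAUi, 0.37 (95% interval 0.04 to 0.70), did not pass the test (edgeR quasi-likelihood test, adjusted p = 0.124). UAU overexpression alone gave -0.12 (95% interval -0.61 to 0.36, adjusted p = 0.745, edgeR).

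The low fraction was not used to choose PTK7, but it comes from the same lines and its mRNA is part of total RNA. It is therefore no independent check of that choice. There the control replicates had 4.56, 4.43 and 4.37 CPM, and the GAUi replicates 10.2, 11.8 and 8.14 CPM. The isoswitch replicates had 6.35, 10.2 and 6.39 CPM and the UAU replicates 6.48, 2.79 and 1.99 CPM. GAUi and isoswitch lay above control in every replicate, while UAU replicate A overlapped isoswitch. PTK7 rose in GAUi by 1.17 (log2 fold change, SE 0.31, adjusted p = 0.0413, edgeR), with the same control samples as the other comparisons of this fraction. This call was lost with the replicate block (adjusted p = 0.0535) and without control replicate A or C or any 1 GAUi replicate (adjusted p from 0.0711 to 0.167). Isoswitch against control was 0.78 (SE 0.32, 95% interval 0.11 to 1.45, adjusted p = 0.241, edgeR).

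APCDD1L lies on chromosome 20 (58459101 to 58515399). In total RNA it had 58.0, 58.2 and 63.1 CPM in control, 75.3, 73.3 and 72.7 CPM in UAU, 118, 99.1 and 117 CPM in GAUi, and 106, 118 and 124 CPM in isoswitch. All UAU replicates lay above control, and all replicates of the 2 knockdown lines lay above UAU. The log2 fold change against control was 0.87 (SE 0.09) in GAUi and 0.95 (SE 0.09) in isoswitch. The high fraction gave 0.76 (SE 0.10) and 0.95 (SE 0.10), with mean levels of 81.7 ± 6.35 CPM (SD, n = 3) in control, 137 ± 3.93 CPM in GAUi and 158 ± 15.1 CPM in isoswitch.

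In the low fraction, which was not used to choose it, APCDD1L rose in both knockdown lines. As for PTK7, this fraction of the same lines is no independent check of the choice. Control had 52.3, 55.2 and 50.8 CPM, GAUi 87.9, 99.96 and 81.3 CPM, and isoswitch 105, 94.8 and 94.98 CPM, with no overlap between control and either line. The log2 fold change was 0.76 in GAUi (SE 0.11, adjusted p = 0.000862) and 0.89 in isoswitch (SE 0.11, adjusted p = 0.000224, edgeR). Both kept their call without any 1 replicate (adjusted p at most 0.00997). Isoswitch was also above UAU by 0.53 (SE 0.11, adjusted p = 0.00852, edgeR), a call lost without UAU replicate B (0.0641) or isoswitch replicate A (0.0603). For UAU against control the values were 0.33 in total RNA, 0.37 in the low and 0.19 in the high fraction, with adjusted p from 0.12 to 0.143 (edgeR). The total RNA value passed with only the groups compared in the fit (adjusted p = 0.0062, edgeR). UAU and control did not overlap in total RNA or the low fraction, but did in the high fraction.

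**Figure D1:**
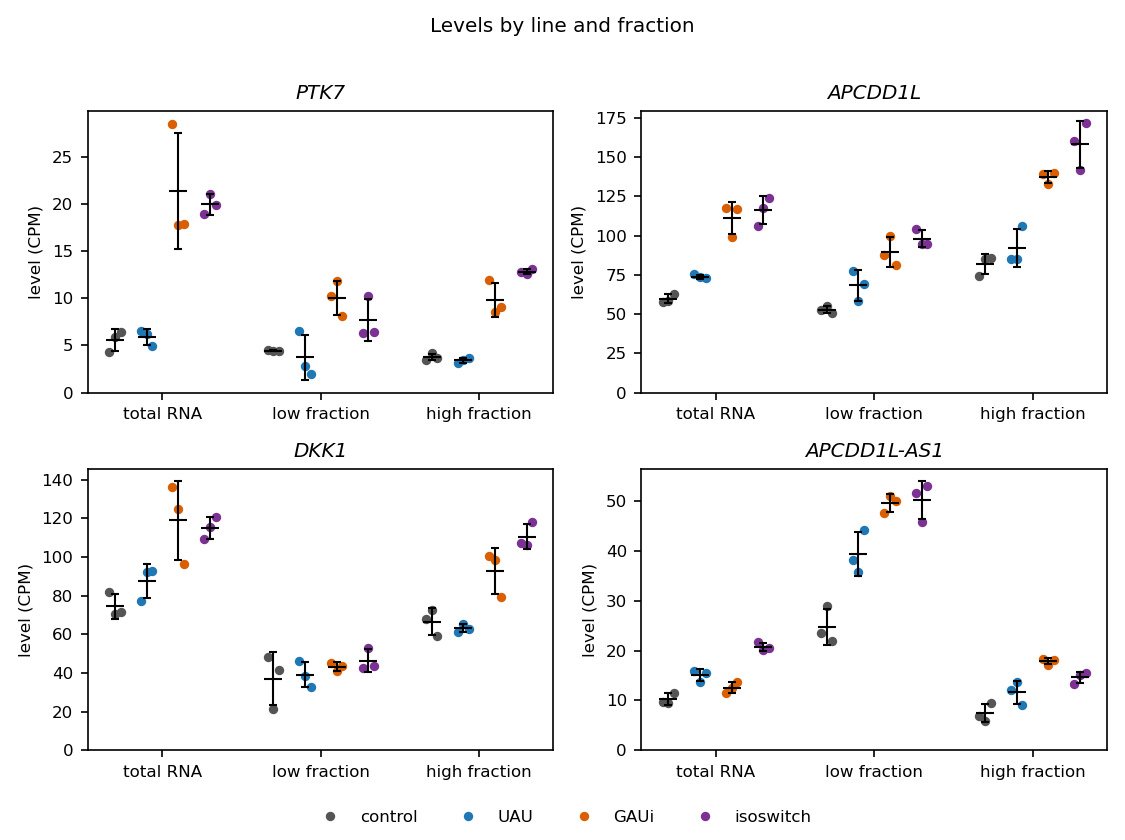
Level (CPM) of PTK7, APCDD1L, DKK1 and the antisense neighbour APCDD1L-AS1 in total RNA and the low and high fractions; points are libraries, coloured by line, and bars show the mean ± SD of 3. PTK7 and APCDD1L lie above control in all GAUi and isoswitch libraries of the 3 fractions, and the single high PTK7 value in total RNA is GAUi replicate A (28.5 CPM).

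APCDD1L-AS1, a long non-coding RNA gene named APCDD1L-DT in RefSeq, starts beside APCDD1L, and the 2 genes overlap by 21 bp. Whether the counting used strand is not given in the sources used here, so reads in the shared stretch cannot be assigned. In control cells its share of the library was larger in the low fraction (24.8 ± 3.58 CPM) than in the high one (7.45 ± 1.79 CPM; SD, n = 3), a log2 fold change of -1.78 (SE 0.18, adjusted p = 3.74e-07, edgeR), opposite in sign to APCDD1L. In total RNA it rose in UAU by 0.57 (SE 0.14, adjusted p = 0.049) and in isoswitch by 1.01 (SE 0.13, adjusted p = 0.000117), whereas GAUi gave 0.26 (SE 0.14, adjusted p = 0.233, edgeR). In the low fraction it rose in all 3 lines, by 0.66 in UAU, 1.00 in GAUi and 1.02 in isoswitch (adjusted p = 0.02, 0.000108 and 0.000167, edgeR). It rose in the high fraction by 0.66, 1.29 and 0.99 (adjusted p = 0.00735, 1.17e-05 and 0.00036, edgeR), though UAU and control overlapped there. The high-to-total ratio of APCDD1L-AS1 was raised in GAUi by 1.02 (SE 0.22, adjusted p = 0.03, edgeR), where that of APCDD1L gave -0.12 (SE 0.14, adjusted p = 0.732, edgeR).

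Of the genes beside PTK7, SRF, a transcription factor gene for cytoskeletal and early-response genes, was higher in GAUi in total RNA (0.43, SE 0.09, adjusted p = 0.00527) and in the high fraction (0.49, SE 0.10, adjusted p = 0.00136, edgeR). In isoswitch, where PTK7 was high, SRF gave 0.13 and 0.06 (adjusted p = 0.541 and 0.768, edgeR). KLC4, which lies 1221 bp from PTK7, and MRPL2, CUL7 and CUL9 passed in none of the comparisons between lines in which they were tested (edgeR), and neither did VAPB beside APCDD1L.

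The genes most like PTK7 and APCDD1L over the 36 libraries were ranked by Pearson's r of log2 CPM after the control mean of the same fraction was subtracted, among the 8858 genes that averaged 3 or more in log2 CPM. For PTK7 they were KRT81, a hair keratin gene (r = 0.91), TUBB6, a tubulin gene (0.88), the lysophosphatidic acid receptor gene LPAR1 (0.85), APCDD1L itself (0.84) and the proteoglycan gene SRGN (0.84). For APCDD1L they were the Polycomb gene BMI1 (0.91), the read-through gene COMMD3-BMI1 (0.91), which shares sequence with BMI1 so that their counts are uncertain, TUBB6 (0.90), FAM210B (0.88) and the actin gene ACTG1 (0.88). The 36 libraries share lines and control means, so they are not independent points. PTK7 and APCDD1L were both chosen for their rise in the knockdown lines, so a high r between them follows in part from that choice. KRT81 in total RNA averaged 258 CPM in control, 265 in UAU, 439 in GAUi and 474 in isoswitch. Among the members, r with PTK7 was 0.79 for DKK1, 0.57 for FZD2, 0.55 for LRP6 and -0.47 for LRP5.

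DKK1, the secreted LRP5/LRP6 inhibitor (chromosome 10, 52314281 to 52317657), rose in both knockdown lines in total RNA and in the high fraction. In total RNA it had 82.0, 70.4 and 71.4 CPM in control, 77.2, 92.2 and 92.8 CPM in UAU, 136, 125 and 96.4 CPM in GAUi, and 109, 115 and 120.5 CPM in isoswitch. The knockdown lines did not overlap control. The log2 fold change was 0.66 in GAUi (SE 0.12, adjusted p = 0.00149) and 0.62 in isoswitch (SE 0.12, adjusted p = 0.00414, edgeR). High-fraction control had 68.1, 72.8 and 58.9 CPM, GAUi 101, 98.2 and 79.3 CPM, and isoswitch 107, 106 and 118 CPM. DKK1 rose there by 0.48 in GAUi (SE 0.10, adjusted p = 0.00267) and 0.72 in isoswitch (SE 0.10, adjusted p = 1.93e-05, edgeR). All 4 calls held without any 1 replicate.

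In the low fraction DKK1 had 48.3, 21.6 and 41.6 CPM in control, and control replicate B stood apart. GAUi had 45.4, 41.1 and 43.6 CPM and isoswitch 42.5, 53.0 and 43.9 CPM, overlapping control. Neither line passed the test (0.21 and 0.32, SE 0.20 each, adjusted p = 0.633 and 0.491, edgeR), and the intervals were -0.20 to 0.63 for GAUi and -0.10 to 0.73 for isoswitch. The total RNA value lies just above the first and within the second, but both intervals include control replicate B. Without that replicate GAUi gave -0.06. Over the fits that left out 1 replicate, isoswitch gave 0.05 to 0.55.

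LRP5, a Wnt co-receptor gene on chromosome 11, had 17.3, 20.2 and 17.3 CPM in control total RNA and 9.02, 9.91 and 12.3 CPM in GAUi, with no overlap. It fell by 0.84 (log2 fold change -0.84, SE 0.15, adjusted p = 0.00182, edgeR), also without any 1 replicate. UAU and isoswitch had 12.6 ± 1.70 and 13.1 ± 1.63 CPM (SD, n = 3), below all control replicates, with log2 fold changes of -0.51 and -0.47 that did not pass (adjusted p = 0.125 and 0.091, edgeR). With only the 2 groups compared in the fit, both passed (adjusted p = 0.0193 and 0.00768, edgeR). The pseudogene LRP5L, which shares sequence with LRP5, had 1.49 ± 0.223 CPM in control total RNA. LRP6, the other co-receptor gene (chromosome 12), had 30.01 ± 4.25 CPM in control total RNA and passed in none of the 3 comparisons with control in any fraction (edgeR).

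PTK7 and APCDD1L were chosen in GAUi and isoswitch against control in total RNA, so they are left out of these 2 counts. Of the other 7 tested members, 2 passed in GAUi (DKK1 higher, LRP5 lower), where 10.1% of all 12357 genes did. In isoswitch 1 of those 7 passed (DKK1), against 4.05% of all genes. In UAU 1 of all 9 passed, against 0.914%. The median log2 fold change of those 7 was -0.02 in GAUi and 0.08 in isoswitch, and 0.00 and 0.01 over all genes. In the low fraction 3 of 9 passed in GAUi (3.4% of 12445 genes) and 1 of 9 in isoswitch (2.58%). In UAU 0 of 9 passed there by edgeR and by DESeq2, with 2 at an unadjusted p under 0.05, where 0.691% of all genes passed.

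The third member called in low GAUi was FZD2, a single-exon Frizzled receptor gene on chromosome 17. It had 73.1, 68.5 and 83.1 CPM in control and 93.9, 97.7 and 101 CPM in GAUi, without overlap (log2 fold change 0.38, SE 0.10, adjusted p = 0.0445, edgeR). This call was lost without control replicate A or B or any 1 GAUi replicate, with the replicate block (0.0822) and with only the 2 groups in the fit (0.0913). In total RNA the GAUi replicates had 125, 67.5 and 88.9 CPM of FZD2, with A the highest and B below all control replicates (0.18, SE 0.15, adjusted p = 0.475, edgeR). Without GAUi replicate B, FZD2 gave 0.37 and passed (adjusted p = 0.0357).

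**Figure D2:**
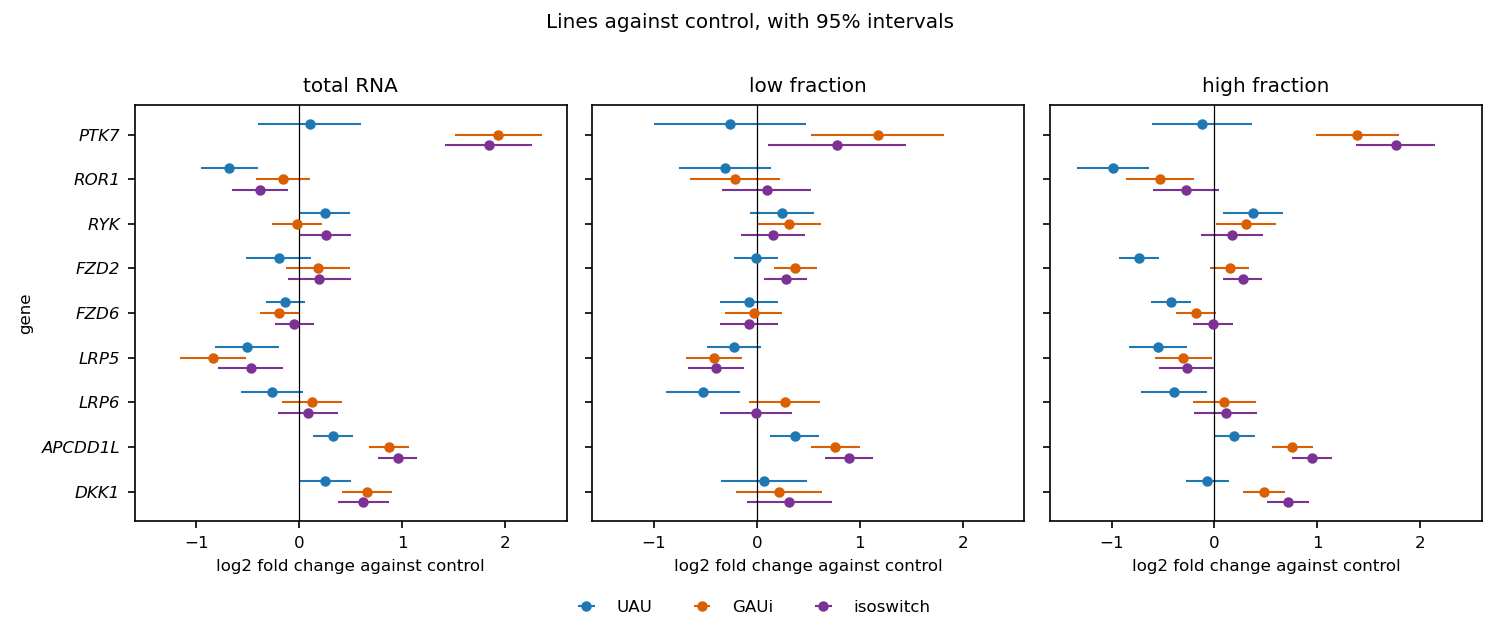
Log2 fold change against control of the 9 tested members in UAU, GAUi and isoswitch, by fraction, with 95% intervals from the edgeR fit of 12 libraries per fraction; the 3 lines share the control libraries. PTK7, APCDD1L and DKK1 lie to the right in GAUi and isoswitch, and ROR1, FZD2, FZD6 and LRP5 to the left in UAU in the high fraction.

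Of the 7 receptor members, ROR1, FZD2, FZD6 and LRP5 fell in the high fraction of UAU against control, RYK was called higher, and PTK7 and LRP6 did not pass. Of 11 other receptor and co-receptor genes tested there, edgeR called 0 and DESeq2 1, with 4 at an unadjusted p under 0.05 and a median log2 fold change of 0.03. Of 9 tested members, 5 passed, 4 of them lower, where 28.7% of 11979 genes passed and 15.5% were lower. ROR1, a receptor tyrosine kinase-like gene on chromosome 1, had 12.4, 15.2 and 11.8 CPM in control and 6.57, 6.84 and 6.41 CPM in UAU. The 2 groups did not overlap, and the log2 fold change was -0.99 (SE 0.17, adjusted p = 0.000125, edgeR).

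FZD2 had 119, 123 and 124 CPM in control and 62.1, 69.8 and 86.3 CPM in UAU in the high fraction. It fell by 0.73 (SE 0.10, adjusted p = 6.04e-06, edgeR), with no overlap. FZD6, a Frizzled gene on chromosome 8, had 49.6, 53.1 and 51.5 CPM in control and 39.3, 38.2 and 36.7 CPM in UAU and fell by 0.42 (SE 0.10, adjusted p = 0.0018, edgeR). LRP5 had 25.1, 27.2 and 31.9 CPM in control and 15.3, 21.5 and 20.3 CPM in UAU and fell by 0.55 (SE 0.14, adjusted p = 0.00379, edgeR). These 4 calls held without any 1 replicate. LRP6 gave -0.39 (SE 0.16, adjusted p = 0.0603, edgeR), and passed without control replicate C (0.0346) or UAU replicate A (0.0245).

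RYK, the gene on chromosome 3 for a receptor with an inactive kinase domain, was the member called higher. It had 28.98, 26.9 and 22.7 CPM in control and 40.4, 37.0 and 25.2 CPM in UAU, and the groups overlapped. The log2 fold change of 0.38 (SE 0.14, adjusted p = 0.0471, edgeR) lost its call in DESeq2 (adjusted p = 0.0549), with only the 2 groups in the fit (0.0648) and without control replicate B or C or UAU replicate A or B (0.0917 to 0.332).

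In total RNA the same direction was called for ROR1, with 15.8, 18.6 and 20.2 CPM in control and 11.2, 11.4 and 10.9 CPM in UAU (log2 fold change -0.68, SE 0.13, adjusted p = 0.0162, edgeR). That call was lost without control replicate B or C or any 1 UAU replicate (adjusted p from 0.0695 to 0.119). FZD2 and FZD6 gave -0.20 and -0.14 in total RNA (adjusted p = 0.615 and 0.563, edgeR). The high-to-total ratio, tested as the change in the high fraction minus that in total RNA, was called for 0 of 9 members in UAU by edgeR and by DESeq2, with 1 at an unadjusted p under 0.05, where 7.32% of all genes were called. That member was FZD2, at -0.50 (SE 0.18, adjusted p = 0.0882, edgeR). Its ratio was called without high UAU replicate C (-0.65, adjusted p = 0.0236), and when the high fraction was set against the low one (-0.72, adjusted p = 0.00218). In GAUi and isoswitch the ratio was also called for 0 members by both tools, with 1 and 0 at an unadjusted p under 0.05, beside 0.718% and 0.0% of all genes.

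Within the high fraction, the mean levels of ROR1, FZD2, FZD6 and LRP5 were not lower in isoswitch than in GAUi. Isoswitch had 11.9, 10.6 and 10.2 CPM of ROR1, and GAUi 8.38, 10.8 and 7.96 CPM, overlapping. For FZD2 isoswitch had 149, 155 and 141 CPM and GAUi 137, 138 and 129 CPM, without overlap, the reverse order of UAU and control. Isoswitch against GAUi was called for 0 of 9 members by edgeR and DESeq2, with 3 at an unadjusted p under 0.05, where 15.8% of all genes were called. Total RNA and the low fraction also gave 0 of 9 by both tools, with 2 and 0 at an unadjusted p under 0.05, beside 0.113% and 0.0% of all genes.

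The difference between the 2 UAU effects (with the knockdown minus without) was tested as an interaction, and 5 of 9 members passed in the high fraction, where 35.7% of all genes did. ROR1 gave 1.24 (SE 0.24, adjusted p = 0.000211), FZD2 0.86 (SE 0.13, adjusted p = 1.82e-05), FZD6 0.59 (SE 0.14, adjusted p = 0.00121) and LRP5 0.58 (SE 0.19, adjusted p = 0.0203) on the log2 scale (edgeR). RYK gave -0.51 (SE 0.20, adjusted p = 0.0483, edgeR). PTK7 and APCDD1L did not pass (0.49, adjusted p = 0.19, and -0.00, 95% interval -0.28 to 0.27, adjusted p = 0.991, edgeR). The ROR1, FZD2 and FZD6 calls held in all 12 fits that left out 1 replicate. LRP5 lost its call without control replicate C, UAU replicate A or GAUi replicate A (adjusted p 0.0517, 0.0865 and 0.0692). RYK lost its call in 9 of 12 and in DESeq2 (0.0676). In total RNA and the low fraction 0 of 9 members passed by edgeR and by DESeq2, with 3 and 0 at an unadjusted p under 0.05, where 0.0243% and 0.233% of all genes passed.

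**Figure D3:**
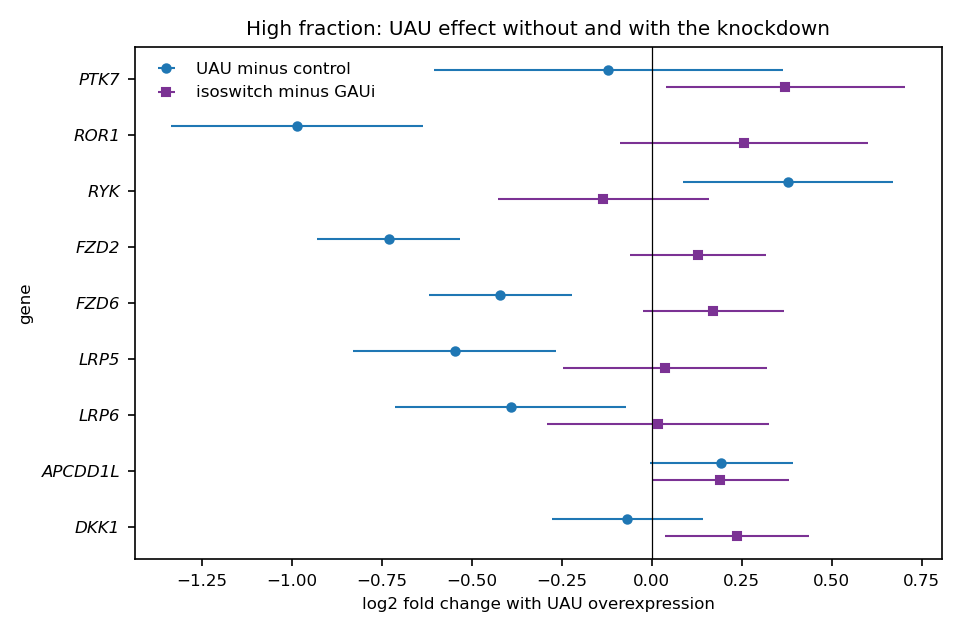
Log2 fold change with UAU overexpression in the high fraction, without the knockdown (UAU minus control, circles) and with it (isoswitch minus GAUi, squares), with 95% edgeR intervals over 3 libraries per group. ROR1, FZD2, FZD6 and LRP5 lie left of 0 without the knockdown, and their intervals hold 0 with it.

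Isoswitch against UAU asks what the knockdown does where the UAU tRNA is overexpressed, and shares no libraries with GAUi against control. In the high fraction PTK7 (1.88, SE 0.20) and APCDD1L (0.76, SE 0.09) were chosen on this contrast. Of the other 7 members, 5 passed, all higher. There 41.6% of all genes passed, 20.4% higher and 21.3% lower. The 5 were FZD2 (1.01, SE 0.10, adjusted p = 1.23e-08), DKK1 (0.78, SE 0.10, adjusted p = 6.88e-07), ROR1 (0.71, SE 0.18, adjusted p = 0.00197), LRP6 (0.50, SE 0.16, adjusted p = 0.0112) and FZD6 (0.41, SE 0.10, adjusted p = 0.00126, edgeR). LRP6 lost its call without UAU replicate C (0.093) or isoswitch replicate C (0.068). In total RNA, where 3.42% of all genes passed, PTK7 and APCDD1L were chosen on this contrast. Of the other 7, 0 passed by edgeR and by DESeq2, with 4 at an unadjusted p under 0.05. With only the groups compared in the fit, FZD2 (0.39, adjusted p = 0.000296), DKK1 (0.36, adjusted p = 0.000592) and LRP6 (0.34, adjusted p = 0.0241) passed (edgeR). FZD2 and DKK1 also passed with no count filter (adjusted p = 0.0115 and 0.0176, edgeR). The shares of all genes called in those fits are not given here. In the low fraction the count was 1 of 9, APCDD1L, against 4.25%.

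In GAUi against control in the high fraction, where 10.1% of all genes passed, PTK7 and APCDD1L were chosen on the contrast. Of the other 7 members, 2 passed, DKK1 higher and ROR1 lower, with a median log2 fold change of 0.09. ROR1 had 8.38, 10.8 and 7.96 CPM in GAUi, all below control (log2 fold change -0.53, SE 0.16, adjusted p = 0.0339, edgeR). It lost its call in DESeq2 (0.0953) and without control replicate A or B or GAUi replicate A or C (0.0662 to 0.169). In isoswitch, where 11% of all genes passed, 1 of the same 7 did, DKK1, with a median of 0.11. FZD2, at 0.28 (SE 0.09, adjusted p = 0.054, edgeR), passed in DESeq2 (adjusted p = 0.0431). By edgeR it also passed with RLE size factors (0.0449), no count filter (0.0398) and only the groups compared (0.0211). It passed in 0 of 6 fits that left out 1 replicate (adjusted p from 0.06 to 0.151, edgeR).

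**Figure D4:**
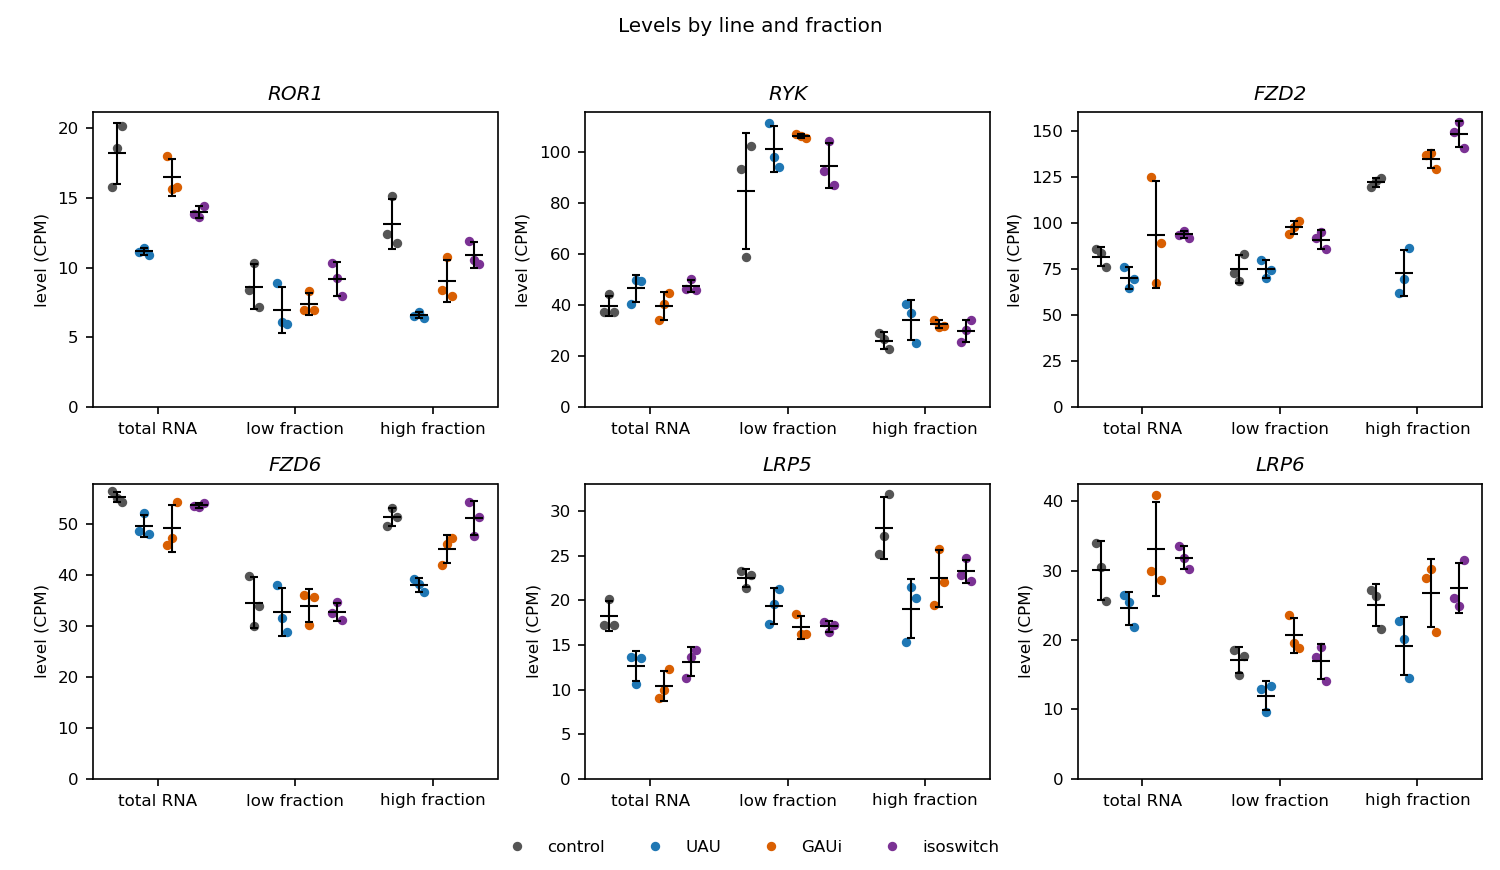
Level (CPM) of ROR1, RYK, FZD2, FZD6, LRP5 and LRP6 in total RNA and the low and high fractions; points are libraries, coloured by line, and bars show the mean ± SD of 3. In the high fraction the UAU libraries of ROR1, FZD2, FZD6 and LRP5 lie below all control libraries, and RYK is highest in the low fraction in every line.

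The order of the lines by mean level in the high fraction was isoswitch, GAUi, control and UAU for PTK7, and the knockdown lines were separated from the others but control and UAU overlapped. For ROR1 it was control, isoswitch, GAUi and UAU, with 13.1 ± 1.81, 10.9 ± 0.897, 9.04 ± 1.52 and 6.61 ± 0.219 CPM (SD, n = 3). There control overlapped isoswitch and isoswitch overlapped GAUi, and UAU lay below all the others. For FZD2 it was isoswitch, GAUi, control and UAU, with no overlap between neighbours.

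How the members were spread over the gradient was examined in control cells. Of 9 tested members, 6 were higher in the high than in the low fraction and 1 was lower, where 66.0% of 12266 genes passed, 32.8% higher and 33.2% lower. DKK1 (0.82, SE 0.19, adjusted p = 0.00163), FZD2 (0.68, SE 0.09, adjusted p = 1.05e-05), APCDD1L (0.60, SE 0.09, adjusted p = 3.8e-05) and ROR1 (0.59, SE 0.18, adjusted p = 0.00972) were higher (log2 fold change, edgeR). FZD6 (0.55, SE 0.11, adjusted p = 0.000367) and LRP6 (0.54, SE 0.15, adjusted p = 0.00439) were too. ROR1 lost its call without low replicate C (0.0508) or high replicate B (0.0579), and without low replicate B, the low DKK1 value, DKK1 gave 0.53 (adjusted p = 9.45e-05, edgeR).

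RYK went the other way. It had 93.5, 59.1 and 102 CPM in the low fraction, replicate B being the lowest, and 28.98, 26.9 and 22.7 CPM in the high fraction, with no overlap (log2 fold change -1.71, SE 0.17, adjusted p = 3.79e-07, edgeR). PTK7 (-0.27, 95% interval -0.78 to 0.24) and LRP5 (0.28, 95% interval 0.02 to 0.55) did not pass (adjusted p = 0.329 and 0.0581, edgeR).

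**Figure D5:**
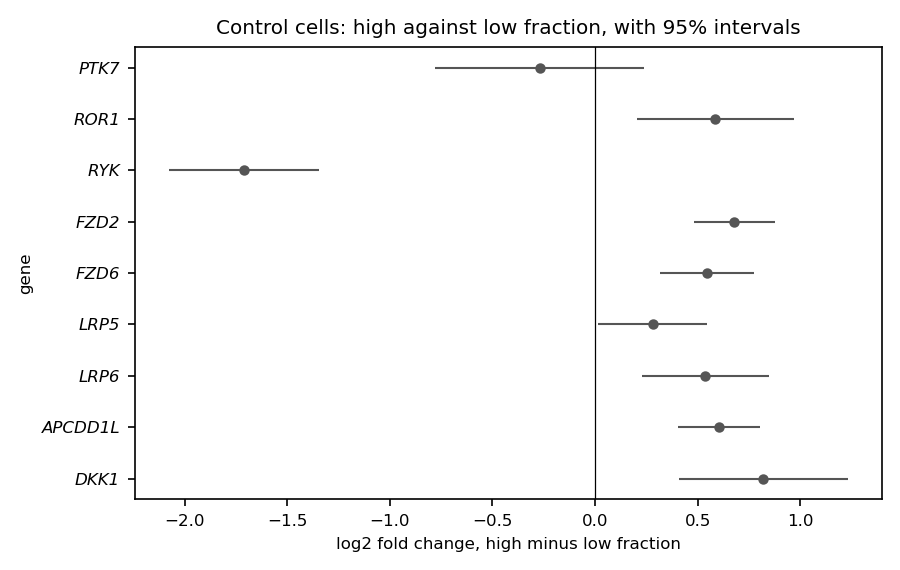
Log2 fold change between the high and low fractions in control cells for the 9 tested members, with 95% edgeR intervals over 9 control libraries. RYK, at -1.71, lies to the left, and DKK1, at 0.82, farthest to the right.

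SFRP1, the gene for a soluble Wnt inhibitor, was the member that passed the count filter in none of the fits. It had 24 counts in all 36 libraries, at most 4 in 1 library, and 0 in 21 of them. A count of 0 allows up to 3 counts, which is 0.334 to 0.578 CPM at these depths, counting error only. No difference between lines was detectable at this depth.

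Other genes of the pathway came from 6 lists with 147 genes beside the members, all found in the files. In total RNA 97 were tested, and in GAUi 3 were higher and 4 lower, against 4.38% and 5.72% of all genes. Among 18 tested β-catenin target genes, DKK1 included, 4 rose in GAUi: DKK1, the proliferation genes MYC (0.60, SE 0.13, adjusted p = 0.00628) and CCND1 (0.33, SE 0.09, adjusted p = 0.0256), and the AP-1 gene FOSL1 (0.39, SE 0.08, adjusted p = 0.00669, edgeR). Their median was 0.04 beside 0.00 for all genes. In isoswitch 4 of 18 rose: DKK1, MYC (0.65), FOSL1 (0.37) and the transcription factor gene SOX9 (0.38), with a median of 0.22. Over all genes 1.29% rose there.

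Of the 18 target genes, 7 rose and 1 fell in the high fraction of isoswitch, against 3.67% and 7.36% of all genes. MYC rose by 0.92 (SE 0.21, adjusted p = 0.00418), SOX9 by 0.46 (SE 0.09, adjusted p = 0.00172), CCND1 by 0.46 (SE 0.10, adjusted p = 0.00292) and JUN by 0.40 (SE 0.09, adjusted p = 0.00423, edgeR). DKK1, FOSL1 and LEF1 were the others, and BMP4 fell by 0.28 (adjusted p = 0.0215, edgeR). The median was 0.17. For the same list, high GAUi had 2 higher and 1 lower (median 0.02), where 10.1% of all genes passed in either direction. High UAU had 1 higher and 4 lower (median -0.10), against 13.1% and 15.5% of all genes. Low GAUi had 0 higher and 1 lower of 17 (median -0.03), low UAU 0 and 1 (0.05), and low isoswitch 2 and 0 (0.09). There 3.4%, 0.691% and 2.58% of all genes passed in either direction. Total UAU had 1 higher and 1 lower, where 0.914% of all genes passed in either direction. Its median of 0.24 was as large as that of total isoswitch. The repressor gene TLE3, which binds TCF/LEF factors, fell in total RNA of GAUi by 0.68 (SE 0.11, adjusted p = 0.000824) and of isoswitch by 0.50 (SE 0.11, adjusted p = 0.0133, edgeR). RAC1, the GTPase gene of the polarity branch, fell by 0.40 and 0.39 (adjusted p = 0.00133 and 0.00286, edgeR).

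In the high fraction of UAU, 15 of 95 tested pathway genes fell and 5 rose, against 15.5% and 13.1% of all genes. CTNNB1, which encodes β-catenin, fell by 0.56 (SE 0.14, adjusted p = 0.00321), the hyaluronan receptor gene CD44 by 0.69 (SE 0.10, adjusted p = 2.35e-05) and PRICKLE1, of the polarity branch, by 0.76 (SE 0.14, adjusted p = 0.000264, edgeR). PORCN, whose enzyme acylates Wnt ligands, rose by 0.64 (SE 0.10, adjusted p = 6.24e-05, edgeR).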

How the data were processed

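The authors deposited 1 file per library, of read counts by gene symbol that were not normalized (whole numbers). Per the submitters' processing notes, STAR, featureCounts, DESeq2 and hg38 were used; for versions, annotation and strand setting, the sources used here give nothing. Libraries were made with the Lexogen QuantSeq 3' kit from 500 ng RNA, per the labels' protocols, so counts come from 3' ends. Molecular identifiers were not used here, so limits set by a count of 0 cover counting error only.

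Counts were tested with edgeR 4.0.16 (R 4.3.3; glmQLFit, glmQLFTest) after filterByExpr and TMM scaling, with Benjamini-Hochberg adjustment over all genes tested. Calls needed an adjusted p below 0.05. SE is the log2 fold change over the square root of F. Each fraction was fitted with its 4 lines together (12 libraries); the ratio used 24 and the gradient 9 control libraries. Correlations used log2 CPM with a prior count of 2. Alternatives were DESeq2 1.42.0, RLE size factors, no count filter, the compared groups alone, the replicate letter as a block and leaving out each replicate. The script was tested on simulated data.

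The members, lists and alternatives were chosen with earlier results of these data known. The genes named are the members, APCDD1L-AS1, LRP5L, the neighbours of PTK7 and APCDD1L, the 5 most similar genes, and, from the pathway lists, called genes with the smallest p. TLE3, RAC1 and SRF were singled out after their values were seen. Gene positions came from RefSeq by symbol (23758 of 26485 symbols matched).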

Additional observations from a re-analysis of the deposited data

Results flagged for a closer look

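In the high fraction the effect of UAU overexpression differed between cells with and without the GAU knockdown for 5 members, by the test of the difference itself. The difference (with the knockdown minus without, log2) was 1.24 for ROR1, 0.86 for FZD2, 0.59 for FZD6, 0.58 for LRP5 and -0.51 for RYK. The RYK value rests on groups that overlap. The same test passed for 35.7% of all genes in that fraction. Outliers were not tested, since every group had 3 libraries.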

How the results depend on the processing

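Of 46 called member values, 43 kept their call in DESeq2, 46 with RLE size factors, 46 with no count filter and 44 with the replicate block. With only the groups compared in the fit, 39 of 41 did, and over the leave-outs of 1 replicate 265 of 306. None of these called values changed sign under these alternatives. The counts include the PTK7 and APCDD1L values of the comparisons on which both genes were chosen. Those values were large by that choice and kept their call in every leave-out. Another 116 values, in 49 combinations of gene and comparison called in neither fit, changed sign. Their main log2 fold changes were at most 0.55 in size, but the alternative value could be larger. For PTK7 the high-to-total ratio in isoswitch was -0.06, and 1.00 with the high fraction set against the low one. In GAUi the PTK7 values were -0.55 and 0.22. The others are not listed further.

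With only the groups compared, members called in total RNA, PTK7 and APCDD1L included, were 3 in UAU (1 in the fit of 12 libraries), 7 in isoswitch (3) and 5 in isoswitch against UAU (2). With no count filter they were 4 in total isoswitch against UAU (2), 1 in the total interaction (0), 2 in low isoswitch against UAU (1) and 1 in the UAU ratio (0). That ratio had 1 with the high fraction set against the low one. Leaving out 1 replicate gave 0 to 1 in total UAU, 1 to 2 in low GAUi (3), 0 to 2 in low isoswitch against UAU, 3 to 5 in the high interaction (5) and 0 to 1 in the UAU ratio. The shares of all genes called under these settings are not given here, so these counts cannot be read as a result about the members. The cause of these shifts was not tested.

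With the replicate block, 1 member was called in low GAUi. The letters are only shared labels: same-letter deviations correlated from -0.488 to 0.331 within a fraction and from -0.343 to 0.195 within a line, and in 0 of 30 pairs of groups were all over 0.1. The depth limits PTK7 (12 to 262 counts) and SFRP1.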
